A study of Homo sapiens with 2 samples.

Results

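The aminoacyl-tRNA synthetases are the enzymes that load each amino acid onto its transfer RNA. Their genes were taken by symbol from a list of 35, of which 19 encode cytosolic and 16 mitochondrial enzymes, and a probe set was kept only where the platform annotation paired it with exactly 1 gene. The rule kept 67 of 54675 probe sets and 32 of 19775 genes, with 34 probe sets for 17 cytosolic enzymes and 33 probe sets for 15 mitochondrial enzymes. MARS1, QARS1 and TARS2 had only probe sets that the annotation also pairs with a microRNA gene, so they are not members here. The study hybridised RNA of KYSE170-luc, a human esophageal squamous carcinoma line whose name marks it as carrying luciferase, to 2 expression arrays. Cells on 1 array, the vector array, had been transfected with an empty vector, and cells on the other with an expression plasmid for the transcription factor SOX17. Both were transient transfections of 12 h in medium with serum, and the sources used here do not give the promoter of the plasmid. Each group is a single array, so no p-value was computed, and every difference is one between these arrays, including any spread between cultures or hybridisations. In bulk RNA, fewer cells of a type and less RNA per cell cannot be told apart.

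Charging by these enzymes is the step at which the genetic code is read into amino acids. Cytosol and mitochondria mostly use separate enzymes, all encoded in the nucleus, although GARS1 and KARS1 each supply both places. By their catalytic fold the enzymes fall into class I and class II, and several cytosolic ones are bound together in the multisynthetase complex. When charged transfer RNA runs short, the kinase GCN2 (EIF2AK4) raises translation of ATF4, a transcription factor that is known to induce many cytosolic synthetase genes. WARS1 is also known as an interferon-induced gene.

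The targeted gene gave no usable check of the labels. A probe set of SOX17 read 4.5 with the empty vector and 83.8 with the plasmid, and the other read 19.1 and 6.5, all below the floor used here. That floor was an intensity of 95, the 60th percentile of both arrays' pooled values, and a gene was called measured when its brightest probe set reached it on both arrays (10034 genes). Of 9 squamous or general epithelial markers with a named probe set 9 were measured, with summed intensities of 132944 on the vector array and 135368 on the SOX17 array. Most of these sums came from SFN, PERP, EPCAM and CDH1. The keratins were dimmer, with KRT14 at 1509.7 and 1814.3, KRT5 at 247.5 and 273.0, and KRT13 at 152.3 and 131.0. Among 5 leukocyte markers only CD79A was measured (sums of 180.8 and 307.3), and among 7 fibroblast and endothelial markers only COL1A1 (1005.2 and 1028.3). PTPRC, the pan-leukocyte marker, read 19.5 and 38.4, and the endothelial marker PECAM1 read 89.6 and 84.7. The probe sets for poly-A control transcripts, which are made for addition to RNA before labelling, had a median log2 ratio of 0.57 over 24 probe sets. No floor was applied to them, and whether the transcripts had been added to these samples was not checked. Their part in the gene ratios was not tested.

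Promoter sequences are shown because a part of the cytosolic enzyme genes hold letters that the choice of members did not use. RefSeq promoters of GRCh38.p14, 250 bases before to 50 after a start site, were found for 30 of the 35 listed genes. The letters TGATGNAA, or TTNCATCA on the other strand, are the core of the C/EBP-ATF response element to which ATF4 binds as a dimer. They stood in the promoters of 7 of 16 cytosolic genes (43.8%), 1 of 14 mitochondrial genes (7.14%) and 1217 of 27305 genes in all (4.46%). Of the ATF4 target genes outside the synthetases with a promoter, 8 of 23 (34.8%) held them. All 8 synthetase matches are given 5′ to 3′ on the strand of the gene, with the matching letters in capitals. A match is a match of letters and not a measured binding site.
TARS1, chr5:33440958-33440983, plus strand: gcctttcgaTTGCATCAgctggtcca
GARS1, chr7:30594836-30594861, plus strand: acgcggcgaTTTCATCAtgctccgag
IARS1, chr9:92293698-92293750, minus strand: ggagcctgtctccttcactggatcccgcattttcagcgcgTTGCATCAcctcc
CARS1, chr11:3057413-3057465, minus strand: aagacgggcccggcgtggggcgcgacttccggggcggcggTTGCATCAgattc
MARS1, chr12:57488024-57488076, plus strand: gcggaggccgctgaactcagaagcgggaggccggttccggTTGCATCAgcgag
AARS1, chr16:70289646-70289733, minus strand: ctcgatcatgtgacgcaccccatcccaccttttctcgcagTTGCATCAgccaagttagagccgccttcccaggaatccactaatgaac
NARS1, chr18:57621810-57621862, minus strand: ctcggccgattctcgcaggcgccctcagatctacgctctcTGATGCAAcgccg
YARS2, chr12:32756047-32756134, minus strand: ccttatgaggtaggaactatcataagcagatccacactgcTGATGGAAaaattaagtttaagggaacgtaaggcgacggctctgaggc
In 4 of these genes (TARS1, IARS1, CARS1 and MARS1) the letters lay within 13 bases of a listed start site, all as TTGCATCA. In AARS1 they lay 187 bases before the start. The match of YARS2, 197 bases before the start, is the only one among the 14 mitochondrial enzyme genes with a promoter.

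WARS1 is shown apart, because its known induction by interferon runs through other letters. Before the downstream of its listed starts it held both a STAT palindrome, TTCNNNGAA, and the core of the interferon-stimulated response element, each searched on both strands. The letters stood in the promoters of 9.38% and 4.38% of all genes respectively.
WARS1, STAT palindrome, chr14:100375472-100375498, minus strand: ctcaagtgtTTCTGAGAAtctgggtga
WARS1, interferon-stimulated response element, chr14:100375384-100375411, minus strand: ttcagaaggGAAACTGAAAgaaagaggg
Of the other cytosolic genes TARS1 and CARS1 also held the STAT letters, and none held the interferon letters. Among mitochondrial genes the STAT letters stood in WARS2 and PARS2, and the interferon letters in EARS2.

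The synthetase genes differed little between the SOX17 array and the vector array. None of the 32 reached 2-fold, against 0.419% of all measured genes at least 2-fold higher and 0.329% at least 2-fold lower (0.747% together). At a share that small, a group of 32 genes would seldom hold such a gene, so this does not set the synthetases apart. Only YARS2 reached 1.5-fold, against 6.97% of all measured genes. At a log2 ratio of 0.32 or more either way were WARS1 and PARS2, both higher on the SOX17 array (15.0% of measured genes), and YARS2, which was lower (13.0%). That makes 3 of 32 (9.38%), against 28.0% of all measured genes either way. All 32 were measured, so no member dropped out at the floor. Of the 32, 20 had a log2 ratio of SOX17 over empty vector above 0 (62.5%, against 54.6% of all measured genes) and 12 below (against 45.4%). The median was 0.055, and that of all measured genes 0.033.

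The error of a ratio within these arrays can be read from genes with several probe sets. Over 4574 such genes the SD of 1 log2 ratio was 0.27, and over the 12 synthetases with several measured probe sets it was 0.21. In the tertile of genes with the brightest probe sets it was 0.21, in the middle tertile 0.29 and in the dimmest 0.36. The brightest tertile held 15 of the 17 cytosolic genes but 3 of the 15 mitochondrial ones. Within that tertile 16.2% of all genes were past a log2 ratio of 0.32 either way, against 2 of 18 synthetases (11.1%), and in the middle tertile 26.5% of all genes, against 0 of 10 synthetases. Past 1.5-fold were 1.58% of all genes of the brightest tertile, against 1 of 18 synthetases (5.56%), which was YARS2. In the middle tertile it was 4.61% of all genes, against 0 of 10 synthetases. In all, 27 of 32 synthetases (84.4%) lay within the 0.27 SD of 0, against 65.0% of all measured genes. The other 5 were EPRS1, WARS1, FARS2, PARS2 and YARS2. That share, and the shares of all measured genes in the paragraph before, are not matched for brightness. Of the 32 synthetases 18 stood in the brightest tertile, where ratios were smaller. The error SD leaves out the spread between cultures, which these arrays cannot give.

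**Figure D1:**
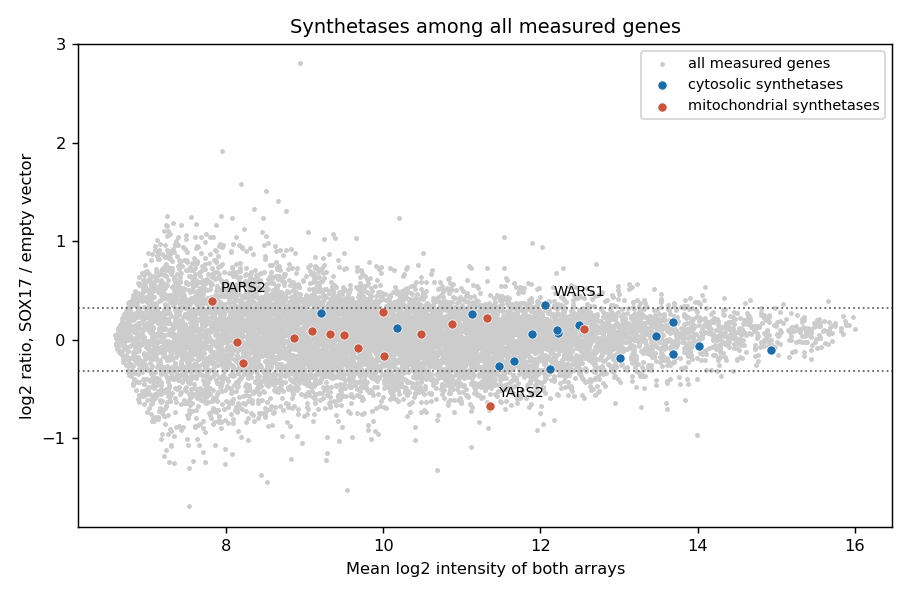
Log2 ratio of SOX17 over empty vector (vertical axis) against the mean log2 intensity of both arrays (horizontal axis), with 1 point per measured gene, all 10034 genes in grey and the synthetases in colour; dotted lines mark a log2 ratio of 0.32 either way. The 17 cytosolic genes lie mostly to the right, and YARS2, PARS2 and WARS1 are the 3 members outside the lines.

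Of the 17 cytosolic genes 10 lay above 0 and 7 below, with a range of -0.30 to 0.35. Their median was 0.061, but with a gene's probe sets averaged it was -0.012, so its sign depends on that choice. WARS1, the tryptophan enzyme, had the highest ratio. Its brightest probe set read 3775.8 with the empty vector and 4812.5 with SOX17 (1.27-fold higher), but its other read 1521.9 and 1289.1 (log2 ratio -0.24), and the mean of both was 0.055. The probe sets of WARS1 thus point in opposite directions. VARS1, the valine enzyme, which binds elongation factor 1, read 541.2 and 652.0 (1.20-fold higher). AARS1, the alanine enzyme, read 2047.8 and 2450.5 (1.20-fold higher) on its only probe set. Both log2 ratios, 0.27 for VARS1 and 0.26 for AARS1, lay just under the error SD of all genes (0.274) and above that of the synthetases (0.212).

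On the other side stood several enzymes with high signal. HARS1, the histidine enzyme, read 3118.4 and 2589.0 (log2 ratio -0.27) on its only probe set. YARS1, the tyrosine enzyme, read 3496.7 and 3017.9 (-0.21). Its second probe set read 205.7 on the vector array and 88.7, below the floor, on the SOX17 array. The floor is a percentile of all values and not a limit of detection, so no ratio is given for that dim probe set. The ratio of YARS1 thus rests on 1 measured probe set. NARS1, the asparagine enzyme, read 8814.9 and 7726.1 (-0.19), GARS1, the glycine enzyme, read 13854.1 and 12559.8 (-0.14), and TARS1, the threonine enzyme, lay at -0.067.

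The remaining cytosolic enzymes outside the complex stood close to 0 or had probe sets that disagreed. SARS1, the serine enzyme, read 4665.6 and 4873.5 (0.063), and its second probe set read 1212.1 and 1362.7 (0.17). FARSB, the beta subunit of the phenylalanine enzyme, lay at 0.10 on 1 measured probe set. FARSA, the alpha subunit, read 1111.9 and 1202.7 (0.11) on its brighter probe set, but 277.9 and 195.2 (-0.51) on the other. CARS1, the cysteine enzyme, lay at 0.15 on its brightest probe set, which read 5452.5 and 6046.9. Its other probe sets read 581.3 and 555.8 (-0.065), 239.6 and 326.0 (0.44), and 207.2 and 340.9 (0.72). The 0.72 of CARS1 is the highest ratio of any measured synthetase probe set, and it comes from the dimmest of the 4.

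The multisynthetase complex was represented by 5 measured enzymes, 3 above 0 and 2 below, with a median of 0.041. EPRS1, which joins the glutamate and the proline enzyme in a single protein, had the lowest ratio of all cytosolic genes. Its 3 probe sets read 4923.9 and 4011.9, 2483.4 and 2135.9, and 167.6 and 143.1, with log2 ratios of -0.30, -0.22 and -0.23. Every probe set of EPRS1 was lower on the SOX17 array, by 1.23-fold on the brightest. KARS1, the lysine enzyme, was also lower on both of its probe sets, at 32253.8 and 30073.7 (-0.10) and at 6860.3 and 5965.2 (-0.20). RARS1, the arginine enzyme, went the other way at 12362.7 and 13998.9 (0.18). IARS1, the isoleucine enzyme, read 11169.0 and 11492.8 (0.041), and LARS1, the leucine enzyme, read 3719.6 and 3881.7 (0.061), with other measured probe sets at -0.089 and -0.010. A further LARS1 probe set read 143.9 and, below the floor on the SOX17 array, 85.5, so no ratio is given for it. The complex therefore held enzymes on both sides of 0, none past 0.32 on the log2 scale. Its scaffold gene AIMP1 read 10591.3 and 11955.5 (0.17), with probe sets from -0.31 to 0.17.

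The catalytic classes were set beside each other within each compartment, EPRS1 left out because it holds an enzyme of each. Cytosolic class I had 6 of 7 genes above 0 (median 0.15), and cytosolic class II had 4 of 9 (median -0.067), against 54.6% of all measured genes above 0. Of those 6 class I genes WARS1, CARS1 and LARS1 had probe sets of opposite sign. The groups are small, and a difference between the classes was not tested. In the mitochondrial enzymes the order was turned, with class I at a median of 0.042 (6 of 9 above 0) and class II at 0.11 (4 of 6).

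**Figure D2:**
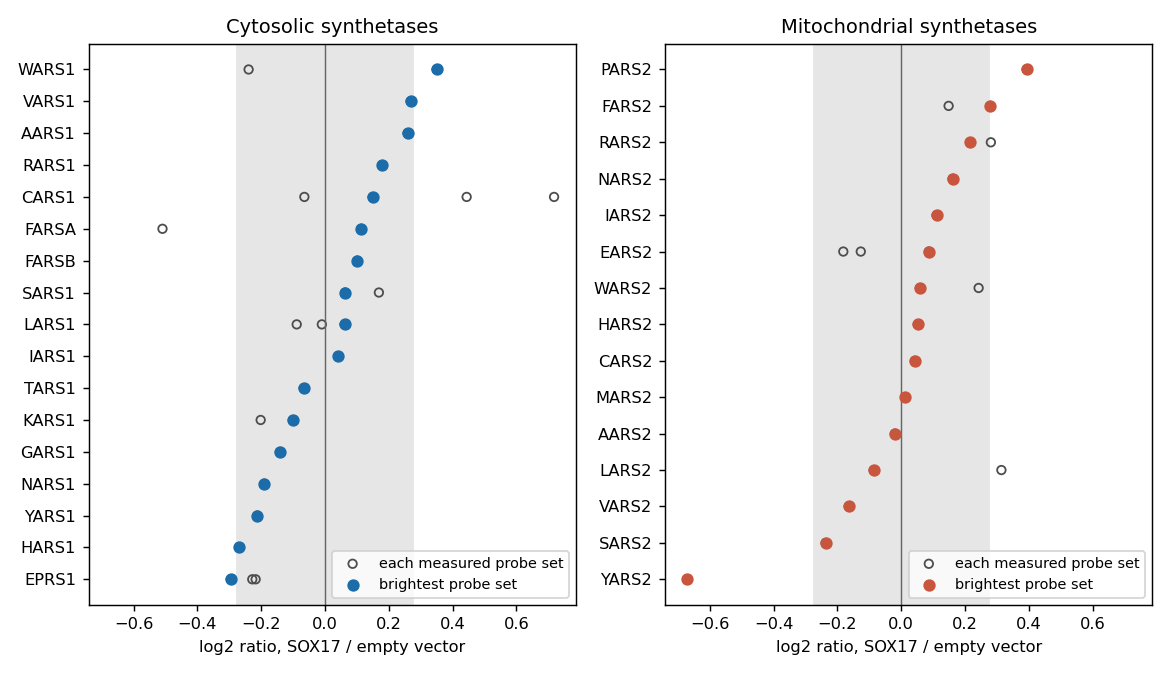
Log2 ratio of SOX17 over empty vector for each synthetase gene; filled points are the brightest probe set of a gene, open points its other measured probe sets, and the grey band is the error of 1 ratio, an SD of 0.27 either side of 0. The 3 probe sets of EPRS1 lie together, those of WARS1, FARSA and CARS1 lie on both sides of 0, and YARS2 lies alone on the left.

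Of the 15 mitochondrial genes 10 lay above 0 (66.7%) and 5 below, with a median of 0.052. YARS2, the mitochondrial tyrosine enzyme, had the largest difference of all synthetases. It read 3318.5 with the empty vector and 2083.5 with SOX17, a log2 ratio of -0.67 (1.59-fold lower). A ratio as low was found in 1.99% of all measured genes, and in 17 of 3345 genes (0.508%) of its own tertile of brightness. The value rests on 1 probe set, so no second reading of YARS2 is at hand. Median centring, quantile normalization and loess, the only alternatives able to move this ratio, gave values from -0.68 to -0.65.

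PARS2, the mitochondrial proline enzyme, had the highest ratio of the mitochondrial genes, at 196.9 and 258.6 (1.31-fold higher). It also rests on 1 probe set and is among the 4 mitochondrial genes of the dimmest tertile, where 41.5% of genes were past a log2 ratio of 0.32 either way. FARS2, the phenylalanine enzyme, read 932.1 and 1130.6 (0.28) and 752.8 and 834.5 (0.15) on its measured probe sets. RARS2, the arginine enzyme, read 2363.0 and 2745.5 (0.22) and 964.0 and 1171.4 (0.28). FARS2 and RARS2 were thus higher on the SOX17 array on every measured probe set, by at most 0.28 on the log2 scale. WARS2, the tryptophan enzyme, read 629.7 and 655.8 (0.059) and 525.2 and 621.4 (0.24), also higher on both.

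Lower on the SOX17 array were SARS2, the serine enzyme, at 322.0 and 273.2 (-0.24), and VARS2, the valine enzyme, at 1095.2 and 977.2 (-0.16), each on 1 probe set. LARS2, the leucine enzyme, read 846.1 and 797.0 (-0.086) on its brighter probe set and 369.2 and 459.0 (0.31) on the other. AARS2, the alanine enzyme, read 283.8 and 279.9 (-0.020). A second probe set of AARS2 read 53.6, below the floor, on the vector array and 192.6 on the SOX17 array, so no ratio is given for it. The measured probe sets of LARS2 therefore point in opposite directions, and AARS2 rests on 1 measured probe set. EARS2, the glutamate enzyme, read 531.5 and 564.3 (0.086) on its brightest probe set, 363.6 and 320.6 (-0.18) on the next and 326.8 and 299.3 (-0.13) on the third. A further EARS2 probe set read 101.5 and 68.0, the latter below the floor. The other 5, MARS2 (0.013), CARS2 (0.043), HARS2 (0.052), IARS2 (0.11) and NARS2 (0.16), lay between 0 and 0.16.

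**Figure D3:**
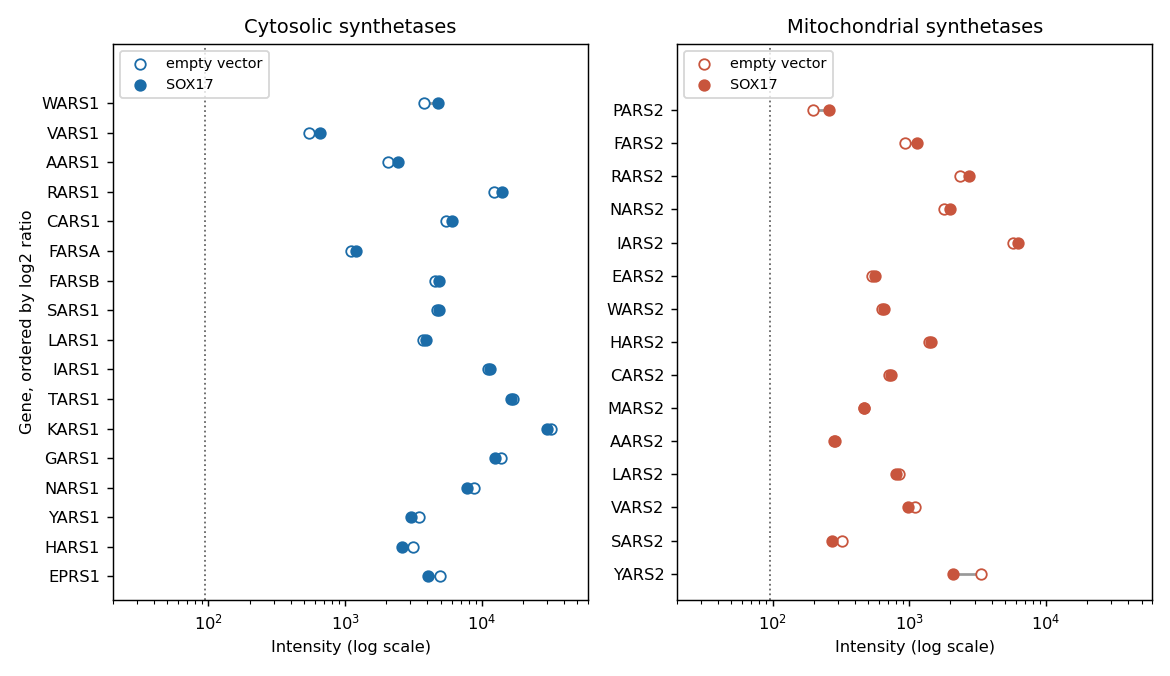
Intensity on the vector array (open) and on the SOX17 array (filled) of the brightest probe set of each synthetase gene, on a log axis, genes ordered by log2 ratio; the dotted line is the floor of 95. Points nearly coincide for most genes, and the widest gap is that of YARS2, from 3318.5 to 2083.5; brightness is not comparable between probe sets of different genes.

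Probe sets of the same gene often pointed in opposite directions, among synthetases and among all genes. Of the 12 synthetases with several measured probe sets, 6 had ratios of opposite sign, 4 were above 0 on all (SARS1, FARS2, RARS2 and WARS2) and 2 below 0 on all (EPRS1 and KARS1). Over all measured genes 2347 of 4574 (51.3%) had opposite signs. At the level of probe sets, 13 of 28 measured cytosolic ones lay above 0 and 15 below, and 14 of 21 mitochondrial ones lay above 0 and 7 below. Of all 17364 measured probe sets with 1 gene, 8876 lay above 0 and 8483 below.

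Enzymes for the same amino acid in cytosol and mitochondria were compared for 13 pairs. EPRS1 was paired with the glutamate enzyme EARS2 only, so proline is not among them. In 5 pairs both genes lay above 0 and in 1 pair, tyrosine, both lay below. In 4 pairs (alanine, leucine, serine and valine) the cytosolic gene lay above and the mitochondrial gene below 0, and in 3 (glutamate, histidine and asparagine) the reverse. Among the 13 pairs the widest gap was that of tyrosine, with YARS1 at -0.21 and YARS2 at -0.67, a difference of 0.46. Valine followed at 0.43, with VARS1 at 0.27 and VARS2 at -0.16. The narrowest was arginine, with RARS1 at 0.18 and RARS2 at 0.22. Outside these pairs, EPRS1 (-0.30) and the mitochondrial proline enzyme gene PARS2 (0.39) lay further apart than the tyrosine pair.

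**Figure D4:**
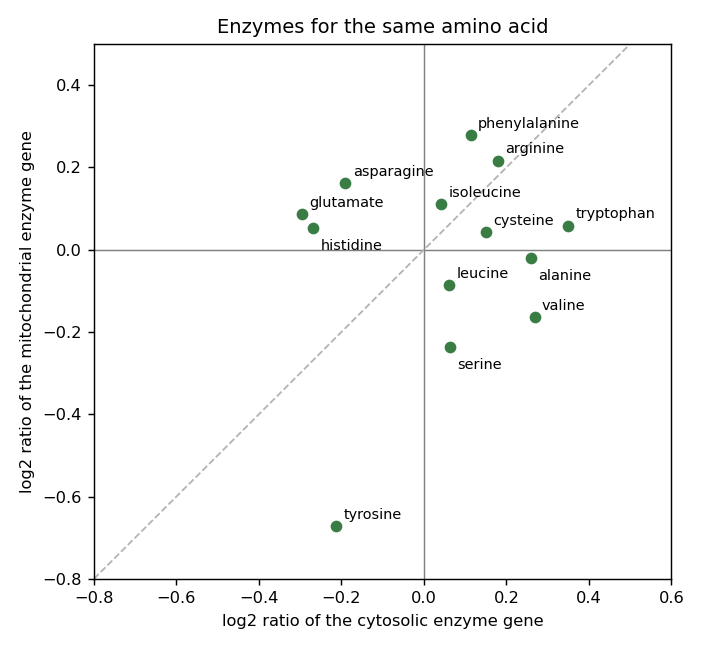
Log2 ratio of SOX17 over empty vector of the mitochondrial enzyme gene (vertical axis) against that of the cytosolic enzyme gene (horizontal axis), 1 point per amino acid for 13 pairs; for glutamate the cytosolic gene is EPRS1 and for phenylalanine FARSA. Proline (EPRS1 and PARS2) is not shown. The points lie on both sides of the dashed line of equal ratios, with tyrosine alone at the lower left.

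Genes with the C/EBP-ATF letters did not stand to one side among the cytosolic enzymes. The 6 measured ones, AARS1 (0.26), CARS1 (0.15), IARS1 (0.041), TARS1 (-0.067), GARS1 (-0.14) and NARS1 (-0.19), had a median of -0.013. The 8 measured cytosolic genes with a promoter but without the letters ran from -0.30 to 0.35, with a median of 0.082. Among mitochondrial genes YARS2, the sole one with the letters, had the lowest ratio, and the 12 without ranged from -0.24 to 0.39. These letters are the ones printed above, and whether they are used in these cells was not tested.

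Other genes of the pathway were read on fixed lists. Beside the counts of these lists stand 54.6% of all measured genes above 0 and 45.4% below. The amino acid sensing list, which holds GCN2, its partners and the translation factor eIF2 that it acts on, had 9 of 14 measured genes above 0 and a median of 0.065, which turned to -0.014 with a gene's probe sets averaged. ATF4 itself read 23249.7 and 25853.2 (0.15), and EIF2AK4 lay at -0.017. The list's only gene past 1.5-fold was PPP1R15A, which helps reverse the stress response, at 415.5 and 247.3 (-0.75). IMPACT, an inhibitor of GCN2 activation, lay at 0.24, with probe sets from -0.85 to 0.24. EIF2B4, a subunit of the exchange factor of eIF2, lay at 0.28.

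ATF4 target genes outside the synthetases had a lower median than the synthetases. Of 27 measured 18 were below 0 (45.4% of all measured genes), with a median of -0.11 that was -0.065 with a gene's probe sets averaged. Of these genes 3 were at least 1.5-fold lower (3.19% of all measured genes) and 0 were at least 1.5-fold higher (3.78%). STC2, a secreted glycoprotein hormone, read 442.7 and 218.2 (-1.02), with its other measured probe set at -0.46. DDIT4, an inhibitor of mTORC1, read 1840.1 and 995.1 (-0.89), CHAC1, which breaks down glutathione, 264.9 and 144.0 (-0.88), and ATF3 7750.2 and 5457.8 (-0.51). The 3 measured probe sets of ATF3 ran from -0.83 to -0.49. The asparagine synthetase gene ASNS, chosen after its values were seen, read 3758.3 and 3727.7 (-0.012). Among synthetases the lowest ratio was that of YARS2, at -0.67, which lay within the range of the ATF3 probe sets and above the ratios of DDIT4 and CHAC1.

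The interferon-induced genes set beside WARS1 had 9 of 10 measured members above 0 and a median of 0.35. PSMB9, an immunoproteasome subunit, read 629.1 and 1047.7 (0.74), TAP1, a peptide transporter for antigen presentation, 1474.6 and 2280.7 (0.63), the transcription factor IRF1 680.6 and 1016.6 (0.58), and the tryptophan-degrading enzyme IDO1 140.1 and 193.1 (0.46). The brighter WARS1 probe set, at 0.35, lay at the median of this list, and the other, at -0.24, lay below every measured member of it.

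Partners of charging in mitochondria had 7 of 8 measured genes above 0 (54.6% of all measured genes) and a median of 0.16, which was 0.051 with a gene's probe sets averaged. GATB, a subunit of the amidotransferase that makes mitochondrial glutaminyl-tRNA from the product of EARS2, read 212.6 and 407.0 (0.94) on 1 measured probe set. Its fellow subunit genes GATC (0.020) and QRSL1 (0.0046), chosen after their values were seen, did not share that difference. The elongation factor TUFM read 10306.8 and 13536.8 (0.39), but its measured probe sets ranged from -0.18 to 0.39. MTFMT, which formylates the initiator methionyl-tRNA, lay at 0.37, and the elongation factor GFM1 at 0.19, with a low of -0.26 among its probe sets.

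Among factors that edit, mature or export tRNA, 4 of 6 measured genes lay above 0 (median 0.022, and 0.057 with probe sets averaged). DTD1, which removes D-amino acids from tRNA, read 2307.2 and 3807.6 (0.72) on its only measured probe set. The exportin XPO5 lay at -0.47 (with its probe sets up to -0.075), TRNT1, which adds the 3′ CCA end, at -0.33 on its brightest probe set and up to 0.10 on others, and the editing factor DTD2 at 0.074. In selenocysteine synthesis, which starts from the serine put onto its tRNA by SARS1, 4 of 6 measured genes lay above 0 (median 0.10). PSTK, the kinase of that seryl-tRNA, read 298.3 and 458.4 (0.62), the next enzyme SEPSECS lay at 0.41, SEPHS1, a selenophosphate synthetase family gene, at 0.18, and EEFSEC, the selenocysteine elongation factor, at -0.49. In the elongation factor 1 complex, EEF1A1 lay at 0.084 and EEF1D at 0.046 on their brightest probe sets. Their measured probe sets ranged from -0.55 to 0.084 and from -0.34 to 0.10, with means of -0.052 and -0.12, so both signs turned on averaging.

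**Figure D5:**
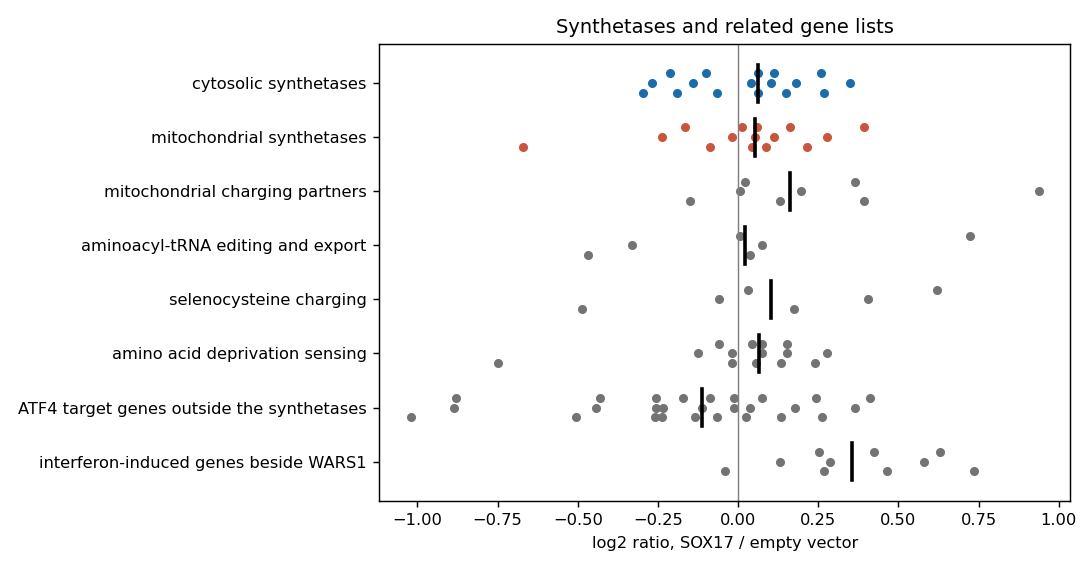
Log2 ratio of SOX17 over empty vector of each measured gene (points) of the synthetases and of 6 related lists, with the median of each list as a black bar. The bars of both synthetase groups (0.061 and 0.052) lie near 0, that of the ATF4 targets at -0.11 (-0.065 with probe sets averaged) and that of the interferon-induced genes at 0.35.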

How the data were processed

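The deposited values are linear intensities from GCOS, which the authors used per the submitters' processing notes. The sources used here do not give its version, algorithm or detection calls. Without the lowest and highest 2% of values both arrays had a mean of 500.1, so they had been scaled before deposit, and values were used as deposited. Probe sets paired with 1 gene by GEO's platform annotation were named, and 0 symbols needed an update. A gene was read from its brightest probe set, by mean log2 intensity. The ratio is log2 of SOX17 over empty vector. The error SD comes from the difference between the ratios of the 2 brightest measured probe sets of a gene, divided by the square root of 2. Counts used a log2 ratio of 0.32 either way, 1.5-fold and 2-fold.

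Members and lists were chosen with earlier results of these data known. Of 113 listed related genes 13 had no probe set with 1 gene and were not analysed here. All members are named. Intensities are given for the 6 largest absolute ratios on each side, the multisynthetase complex, and WARS1, AARS1, GARS1, SARS1 and their partners by rule, for some other members, chosen after their values were seen, and for some of the up to 4 genes named from each list. Alternatives were median centring, quantile normalization, loess (span 0.4), floors at the 50th or 75th percentile or none, means over probe sets, and leaving out _x_at and _s_at probe sets. The computations, in Python 3.11.15 with numpy 2.4.6, pandas 2.3.3 and statsmodels 0.14.6, were tested on simulated data. Protein sequences were not used here.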

Additional observations from a re-analysis of the deposited data

How the results depend on the processing

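Of the 32 gene ratios, under each alternative that could read them, WARS1 and FARSA were the only ones to move by more than the error SD of 0.27, and only with the mean over probe sets (0.055 and -0.20). Much of this was fixed in advance. A floor decides only whether a gene is read and cannot change its ratio. Leaving out _x_at and _s_at probe sets cannot move a gene whose brightest probe set is of neither kind. Averaging cannot move the 10 cytosolic and 10 mitochondrial genes with 1 measured probe set. With that mean the cytosolic median turned to -0.012 and 0 cytosolic genes passed a log2 ratio of 0.32 either way. Without the _x_at and _s_at probe sets, 10 cytosolic genes remained to be read, 6 above 0 and 4 below. With a floor at the 75th percentile, 12 mitochondrial genes were measured, of which 3 lay below 0 and 1 was past a log2 ratio of 0.32. The median of the amino acid sensing list turned to -0.014 with the mean over probe sets and to -0.024 without the _x_at and _s_at probe sets. Median centring, quantile normalization, loess, a floor at the 50th percentile and no floor left the counts of both synthetase groups unchanged and both medians above 0. No paired analysis was possible because the groups share fewer than 2 replicate numbers. With 2 arrays, precision is limited by their number.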

Other observations

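Probe sets that the annotation pairs with a synthetase gene and a microRNA gene lie outside the members, and 5 of them carry the names MARS1, QARS1 and TARS2. The brighter MARS1 probe sets read 5695.5 with the empty vector and 5568.3 with SOX17 (log2 ratio -0.033), and 3643.3 and 3851.4 (0.080). The third MARS1 probe set lay below the floor on both arrays. The QARS1 probe set read 2335.9 and 2297.8 (-0.024), and that of TARS2 read 415.7 and 435.9 (0.069). MARS1 and QARS1 encode the methionine and glutamine enzymes of the multisynthetase complex, and TARS2 the mitochondrial threonine enzyme.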
